A study of Homo sapiens with 18 samples.

Results

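The genes of cholesterol and fatty acid synthesis described here number 34 of the 20263 Ensembl genes in the deposited count table. They were chosen by name: each table row whose Ensembl identifier maps to a listed symbol was taken. The rule uses no measured value, but the list of symbols was drawn up with earlier results of these data known. All 34 were present and all 34 passed the filter on low counts, which kept 14234 genes in all. By role, 7 act in the mevalonate steps, 11 in the squalene and sterol steps, 5 regulate the pathway and 11 act in fatty acid synthesis, elongation and desaturation. RNA sequencing was done on total RNA of wild-type human cancer cell lines labelled MHCC-97H (liver cancer), MDA-MB-231 (breast cancer) and HCT-116 (colorectal cancer). Under each label, 3 libraries came from cells given 20 nM H3B-8800, an oral compound that binds the SF3B1 splicing complex, and 3 from cells given DMSO, its solvent. All 18 libraries share high-glucose DMEM with 10% fetal bovine serum and a 24 h treatment. Nothing in the labels says whether libraries of a group were separate cultures. P-values therefore measure only the spread between these libraries, which may be technical.

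Cells make cholesterol from acetyl-CoA through mevalonate, squalene and lanosterol, and make fatty acids from the same acetyl-CoA through malonyl-CoA. Both routes are switched on by the SREBP transcription factors, which SREBF1 and SREBF2 encode. When sterols are plentiful, the INSIG proteins hold the escort protein SCAP and its bound SREBP in the endoplasmic reticulum. When sterols are low, SCAP carries SREBP to the Golgi, where proteases free its active part. Liver is a main site of both routes, and serum in the medium supplies cells with cholesterol from outside.

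Library totals ran from 28232315 to 41488278 counts. The TMM scaling factors were 0.952 to 0.967 in the MHCC-97H H3B-8800 libraries and 0.860 to 0.891 in the MHCC-97H DMSO libraries, so the choice of scaling bears on that comparison. Defining markers, given here as CPM of the library total without TMM scaling, went against some labels. Of 8 liver markers, 6 had 0 counts in all 6 MHCC-97H libraries and none had 0 counts throughout the other labels. Summed, they reached 4.22 to 5.59 CPM in MHCC-97H libraries, against 50.7 to 67.6 CPM in those labelled MDA-MB-231 and 61.0 to 77.9 CPM in those labelled HCT-116. Of 7 intestinal markers, 5 averaged at least 1 CPM in the libraries labelled MDA-MB-231, as in those labelled HCT-116, with summed levels of 1596 to 1660.4 CPM and 1612 to 1695 CPM, against 0 to 0.17 CPM in MHCC-97H libraries. Mesenchymal and epithelial markers went both ways. Mean VIM was 1186.6 CPM in MHCC-97H, 19.6 CPM in MDA-MB-231 and 22.1 CPM in HCT-116 libraries. Mean FN1 was 129.6, 8721.8 and 9124.6 CPM, in that order. EPCAM averaged 16.3, 0.0176 and 0.0808 CPM in the same order, and KRT19 0.0731, 810.4 and 826.6 CPM. Of 6 mammary markers, SCGB2A2 had 0 counts under every label. GATA3 averaged 0, 49.8 and 50.9 CPM in the same order, ESR1 0.491, 0.76 and 1.03 CPM, and AZGP1 0.0921, 6.81 and 6.96 CPM. KRT8 averaged 784.8, 2581.3 and 2617.7 CPM, and KRT18 666.8, 1067.8 and 1088.9 CPM. Between MDA-MB-231 and HCT-116 DMSO libraries, 0.0351% of tested genes differed, so groups are named below by label only. Replicate 2 of both HCT-116 groups stood apart: its chi-square per degree of freedom against the other replicates was 40.8 to 61.8, against 21.4 to 31.2 for every other pair of replicates. No 2 libraries of the same group were alike within sampling noise; pairs across groups were not compared.

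Promoter letters of 6 genes are shown as examples. SCD and ELOVL6 were higher with H3B-8800 in the MHCC-97H libraries, MVD and EBP were lower there, and INSIG1 differed most upward between labels. SREBF2 encodes an SREBP but was not called with H3B-8800 in those libraries. SREBF1, which was called lower there, is not shown. Each line gives the 250 bases before the RefSeq start on GRCh38.p14, 5′ to 3′ on the gene's strand, with matches to TCACNCCAC (letters of a sterol regulatory element), CCAAT (letters bound by NF-Y) and GGGCGG (letters bound by Sp1) on either strand in capitals. Matches of GGGCGG can overlap by a base, as at INSIG1. The windows lie at chr4:110198616-110198865 on the minus strand (ELOVL6), chr7:155297628-155297877 on the plus strand (INSIG1), chr10:100346983-100347232 on the plus strand (SCD), chr16:88663092-88663341 on the minus strand (MVD), chr22:41832855-41833104 on the plus strand (SREBF2) and chrX:48521558-48521807 on the plus strand (EBP).
ELOVL6: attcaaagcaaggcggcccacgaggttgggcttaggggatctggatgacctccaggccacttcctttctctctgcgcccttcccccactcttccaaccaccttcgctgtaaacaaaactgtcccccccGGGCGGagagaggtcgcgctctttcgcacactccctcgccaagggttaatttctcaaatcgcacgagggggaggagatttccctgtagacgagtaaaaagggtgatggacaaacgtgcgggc
INSIG1: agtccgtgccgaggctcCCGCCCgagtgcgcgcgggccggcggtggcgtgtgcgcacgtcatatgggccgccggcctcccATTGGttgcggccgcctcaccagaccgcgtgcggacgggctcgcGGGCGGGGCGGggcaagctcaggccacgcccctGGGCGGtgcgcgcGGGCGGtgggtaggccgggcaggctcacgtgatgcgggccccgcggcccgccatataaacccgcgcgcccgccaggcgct
SCD: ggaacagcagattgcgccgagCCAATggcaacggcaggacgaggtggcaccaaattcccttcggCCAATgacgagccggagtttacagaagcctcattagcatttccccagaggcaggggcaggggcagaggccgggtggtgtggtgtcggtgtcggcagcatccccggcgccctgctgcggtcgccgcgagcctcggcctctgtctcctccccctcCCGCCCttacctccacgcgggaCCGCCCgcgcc
MVD: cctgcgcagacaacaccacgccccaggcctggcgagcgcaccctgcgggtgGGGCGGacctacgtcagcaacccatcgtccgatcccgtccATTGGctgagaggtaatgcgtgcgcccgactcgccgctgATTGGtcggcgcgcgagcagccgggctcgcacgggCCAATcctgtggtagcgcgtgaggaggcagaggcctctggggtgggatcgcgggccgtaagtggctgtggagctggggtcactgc
SREBF2: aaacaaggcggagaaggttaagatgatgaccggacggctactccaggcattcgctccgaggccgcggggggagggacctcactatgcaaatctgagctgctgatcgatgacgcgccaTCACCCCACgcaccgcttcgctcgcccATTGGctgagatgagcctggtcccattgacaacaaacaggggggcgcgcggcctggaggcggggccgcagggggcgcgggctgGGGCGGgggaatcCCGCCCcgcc
EBP: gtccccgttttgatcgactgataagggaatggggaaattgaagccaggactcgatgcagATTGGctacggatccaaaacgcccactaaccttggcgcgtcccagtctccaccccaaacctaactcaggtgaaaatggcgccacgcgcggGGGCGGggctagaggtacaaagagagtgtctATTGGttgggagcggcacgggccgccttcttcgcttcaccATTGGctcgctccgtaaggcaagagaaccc
In windows from 250 bases before to 50 after a start, the promoter set used here held an entry for 30 of the 34 genes, with 42 windows. ACAT2, FASN, FDFT1 and SQLE had no entry in it and are not covered by these counts. TCACNCCAC was found in 1 of the 42 windows (2.38%), that of SREBF2, against 1.13% of all 35116 promoter windows. CCAAT was in 27 of the 42 (64.3%), against 34.6% of all windows, and GGGCGG in 36 (85.7%), against 45.0% of all windows. A match is a description of the letters only.

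The comparison of H3B-8800 with DMSO asks how the splicing modulator changed the transcripts of these genes. In the MHCC-97H libraries, 13 of the 34 genes changed at a Benjamini-Hochberg adjusted p under 0.05 in edgeR's quasi-likelihood test, against 27.6% of all tested genes. The 5 that rose were ELOVL6, ACACA, ELOVL5, HMGCS1 and SCD, where 12.9% of all tested genes rose. The 8 that fell were MVD, SCAP, EBP, SREBF1, LSS, FASN, FDPS and NSDHL, where 14.7% of all tested genes fell. Changes were small: ELOVL6 was 1.72-fold higher and MVD 1.34-fold lower, and the other 11 changed by 1.14-fold to 1.31-fold. The median log2 fold change was -0.17 over the 34 genes and -0.06 over all tested genes. In bulk RNA, fewer cells carrying a transcript and less of it per cell cannot be told apart.

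**Figure D1:**
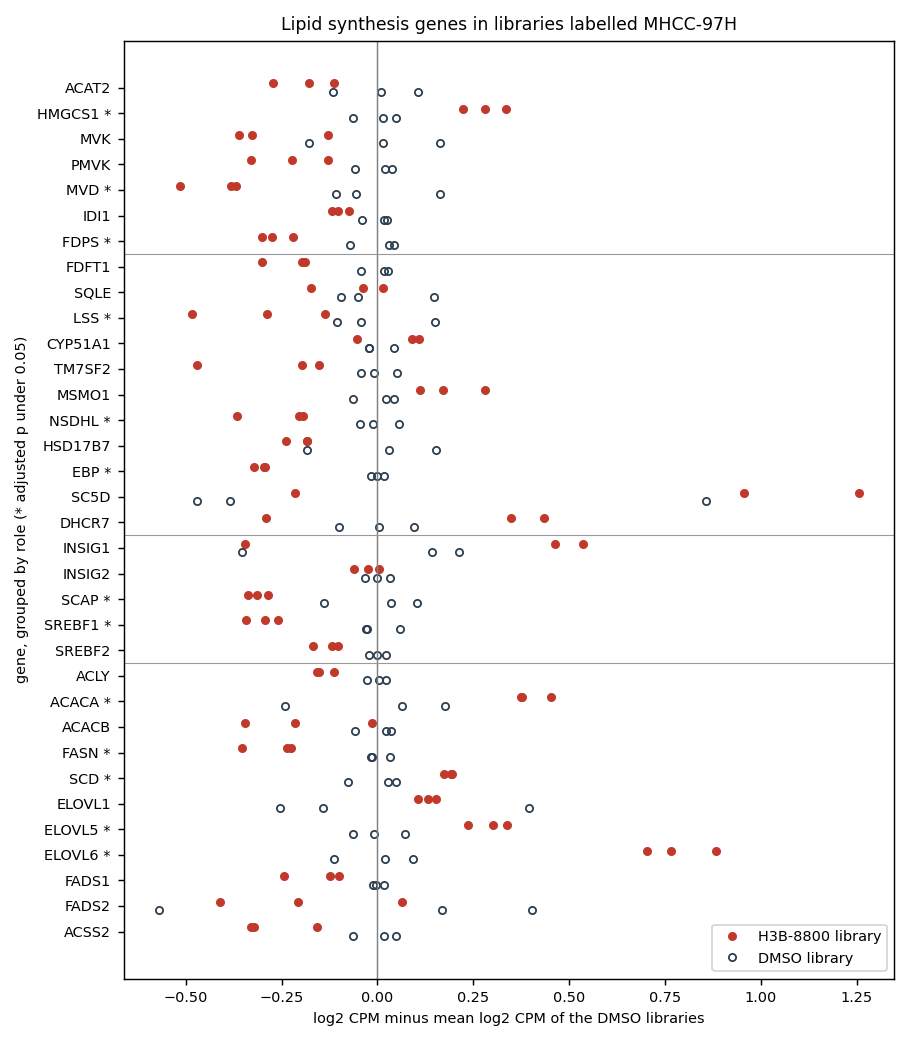
Each row is a lipid synthesis gene, grouped by role, in the 6 MHCC-97H libraries; filled points are H3B-8800 libraries, open points DMSO libraries, and the axis gives log2 CPM minus the mean log2 CPM of the DMSO libraries. The 3 H3B-8800 libraries lay above all 3 DMSO libraries for 6 genes and below them for 17, while SC5D and INSIG1 spread widely in both groups.

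All 3 H3B-8800 libraries lay above all 3 DMSO libraries for 6 of the 34 genes, where 19.6% of all tested genes did so, and below them for 17, where 28.0% did so. Scaled by library totals in place of TMM, 8 of the 34 were called, 6 higher and 2 lower, so that 75% of calls were higher against 38.5% with TMM. Without replicate 2 of both HCT-116 groups, which enter through the shared estimate of spread, 20 were called, 6 higher and 14 lower.

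In the mevalonate steps, 1 of 7 genes rose and 2 fell. HMGCS1 (ENSG00000112972, chr5:43289395-43313512), which makes HMG-CoA, had 82.7, 89.3 and 86.0 CPM in H3B-8800 libraries, against 73.2, 67.8 and 71.6 CPM in DMSO libraries. The groups did not overlap, and its log2 fold change was 0.28 (SE 0.09, edgeR adjusted p = 0.034); leaving out any 1 of 5 MHCC-97H libraries raised the adjusted p to between 0.054 and 0.11. MVD (ENSG00000167508, chr16:88651935-88663161), which makes isopentenyl diphosphate, had 53.0, 48.3 and 53.5 CPM in H3B-8800 libraries, against 66.4, 77.3 and 64.1 CPM in DMSO libraries. Every H3B-8800 value was below every DMSO value, a log2 fold change of -0.42 (SE 0.10, adjusted p = 0.0083), and the call held whichever library was left out.

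FDPS, farnesyl diphosphate synthase, stood at 200.2, 189.2 and 192.7 CPM in H3B-8800 libraries, against 221.7, 237.9 and 240.4 CPM in DMSO libraries. It fell by 0.27 on the log2 scale (SE 0.07, adjusted p = 0.015), but the adjusted p was 0.052, 0.060 and 0.056 when MHCC-97H replicate 2 or 3 of DMSO or replicate 2 of H3B-8800 was left out, and 0.18 with library totals. Without a stated strand setting, 18.6% of its exonic bases overlap the antisense gene RUSC1-AS1. The remaining 4 did not pass: MVK, mevalonate kinase, had a log2 fold change of -0.28 (adjusted p = 0.093), PMVK, which phosphorylates the kinase's product, -0.23 (0.10), the thiolase ACAT2 -0.19 (0.087) and the isomerase IDI1 -0.10 (0.36). For ACAT2, 52.3% of exonic bases overlap genes on the other strand.

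In the squalene and sterol steps, none of 11 genes rose and 3 fell. EBP (ENSG00000147155, chrX:48521158-48528716), which moves a double bond in the sterol ring, was the most even of them, at 167, 164 and 167 CPM in H3B-8800 libraries, against 202, 204 and 207 CPM in DMSO libraries. The groups were well apart, with a log2 fold change of -0.30 (SE 0.06, adjusted p = 0.0039). LSS, which closes squalene epoxide into lanosterol, had 29.9, 26.1 and 33.2 CPM in H3B-8800 libraries, against 33.9, 40.5 and 35.4 CPM in DMSO libraries. The gap between its groups was narrow, and its log2 fold change of -0.30 (SE 0.09, adjusted p = 0.022) lost its call when MHCC-97H DMSO replicate 2 (0.11) or replicate 1 (0.054) or 2 (0.11) of H3B-8800 was left out. It was also lost with library totals (0.18), with upper-quartile scaling (0.0501) and in a fit of only the compared libraries (0.13). NSDHL, of the sterol demethylation complex, averaged 31.7 ± 2.08 CPM in H3B-8800 libraries and 37.8 ± 1.38 CPM in DMSO libraries (SD, n = 3 each), a log2 fold change of -0.26 (SE 0.09, adjusted p = 0.041). That call was lost without 9 of the 18 libraries, taken out in turn, with adjusted p up to 0.16, and held in 14 of all 30 alternative settings.

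The 8 sterol genes that did not pass went both ways. MSMO1, which removes methyl groups from sterols, had 95.5, 103 and 91.7 CPM in H3B-8800 libraries, all above the 86.2, 87.4 and 81.2 CPM in DMSO libraries, with an adjusted p of 0.064. FDFT1, squalene synthase, averaged 221 ± 9.47 CPM in H3B-8800 libraries and 259 ± 6.84 CPM in DMSO libraries (SD, n = 3 each), with an adjusted p of 0.062. SQLE, squalene epoxidase, had 31.3, 27.5 and 30.2 CPM in H3B-8800 libraries, against 29.9, 34.3 and 29 CPM in DMSO libraries. Its groups overlapped (log2 fold change -0.07, SE 0.13, adjusted p = 0.76). CYP51A1, the lanosterol demethylase, with 83.2% of its exonic bases shared with other annotated genes, had a log2 fold change of 0.05. TM7SF2, a sterol reductase, had -0.27 (adjusted p = 0.21), DHCR7, the last-step reductase, 0.20 (0.46), and HSD17B7, whose reads may be shared with near-identical pseudogenes, -0.21 (0.46). SC5D, a desaturase, had 0.65 with an SE of 0.49.

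Among the 5 regulators, 2 fell and none rose. SREBF1 (ENSG00000072310, chr17:17810399-17837002), which encodes the SREBP best known for fatty acid genes, had 143, 138 and 146 CPM in H3B-8800 libraries, against 172, 182 and 171 CPM in DMSO libraries. No values overlapped, and the log2 fold change was -0.30 (SE 0.07, adjusted p = 0.0081; 0.095 with library totals). SCAP, the escort protein, stood at 61.9, 60.9 and 63.1 CPM in H3B-8800 libraries, against 69.9, 78.9 and 82.6 CPM in DMSO libraries. Its H3B-8800 libraries were close together and all lower, with a log2 fold change of -0.32 (SE 0.09, adjusted p = 0.015). Leaving out replicate 2 (0.052) or 3 (0.073) of MHCC-97H DMSO, or replicate 2 of H3B-8800 (0.053), ended that call, as did library totals (0.12).

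SREBF2, which encodes the SREBP best known for cholesterol genes, had 274, 284 and 287 CPM in H3B-8800 libraries, against 304, 308 and 313 CPM in DMSO libraries. All 3 were lower, but its log2 fold change of -0.13 (SE 0.05) missed the threshold (adjusted p = 0.057) and was 0.00 with library totals. INSIG2 had 375, 383 and 365 CPM in H3B-8800 libraries, against 373, 390.0 and 381 CPM in DMSO libraries. These overlapped (log2 fold change -0.03, SE 0.06, adjusted p = 0.80). INSIG1, itself a well-known SREBP target, had 709, 405 and 745 CPM in H3B-8800 libraries, against 402, 568 and 596 CPM in DMSO libraries. Here the lowest library of each group lay at 405 and 402 CPM, and the log2 fold change of 0.25 had an SE of 0.34 (adjusted p = 0.64).

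Of the 11 fatty acid genes, 4 rose and 1 fell. ELOVL6 (ENSG00000170522, chr4:110045846-110199199), which lengthens palmitate to stearate, had 9.23, 8.15 and 8.51 CPM in H3B-8800 libraries, against 5.07, 4.63 and 5.34 CPM in DMSO libraries. Its groups were far apart, with a log2 fold change of 0.78 (SE 0.16, adjusted p = 0.0047). SCD (ENSG00000099194, chr10:100347124-100364834), which puts the first double bond into stearate, had 948, 937 and 949.6 CPM in H3B-8800 libraries, against 858, 788 and 847 CPM in DMSO libraries. It rose by little but evenly (log2 fold change 0.19, SE 0.04, adjusted p = 0.0036). ELOVL6 and SCD were called higher in all 30 alternative settings tried.

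ELOVL5, which lengthens polyunsaturated fatty acids, stood at 149, 153 and 142 CPM in H3B-8800 libraries, against 127, 120.1 and 116 CPM in DMSO libraries. Its groups did not overlap (log2 fold change 0.29, SE 0.07, adjusted p = 0.0079). ACACA, the carboxylase that makes malonyl-CoA for synthesis, had 69.6, 66.0 and 66.1 CPM in H3B-8800 libraries, against 57.5, 43.1 and 53.2 CPM in DMSO libraries. All 3 were higher (log2 fold change 0.39, SE 0.10, adjusted p = 0.012), with a lost call without MHCC-97H DMSO replicate 2, the lowest library (adjusted p = 0.056). FASN (ENSG00000169710, chr17:82078333-82098332), which builds palmitate, moved the other way, with 391, 358 and 388.5 CPM in H3B-8800 libraries, against 452, 453 and 468 CPM in DMSO libraries. That is a log2 fold change of -0.27 (SE 0.08, adjusted p = 0.016), lost when MHCC-97H DMSO replicate 3 (0.061) or H3B-8800 replicate 2 (0.074) was left out and with library totals (0.17).

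The other 6 fatty acid genes did not pass. ACSS2, which activates acetate, averaged 33.0 ± 2.23 CPM in H3B-8800 libraries and 39.8 ± 1.59 CPM in DMSO libraries (SD, n = 3 each), with an adjusted p of 0.055. ACLY, which makes acetyl-CoA from citrate, averaged 167 ± 2.80 CPM in H3B-8800 libraries and 185 ± 3.14 CPM in DMSO libraries (adjusted p = 0.075). FADS1, a desaturase, had a log2 fold change of -0.16 (0.13), ACACB, the carboxylase tied to fatty acid oxidation, -0.19 (0.22), the desaturase FADS2 -0.22 (0.42), and the very long chain elongase ELOVL1 0.10 (0.77). Values in brackets are adjusted p from edgeR.

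GC content moved with the direction of the change. In the MHCC-97H libraries, the 5 genes that rose had longest transcripts of 40.2% to 48.7% GC (median 41.7%), and the 8 that fell had 50.5% to 65.3% (median 60.3%). The 21 that did not pass spanned 35.4% to 64.2% (median 50.2%). Across the 34 genes, which are not independent replicates and share the same 6 libraries, Spearman's rho between GC content and the log2 fold change was -0.72. Across all 14223 tested genes with an annotation it was -0.52, so the trend was shared with the transcriptome. Exonic length had a rho of 0.36 over all genes.

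**Figure D2:**
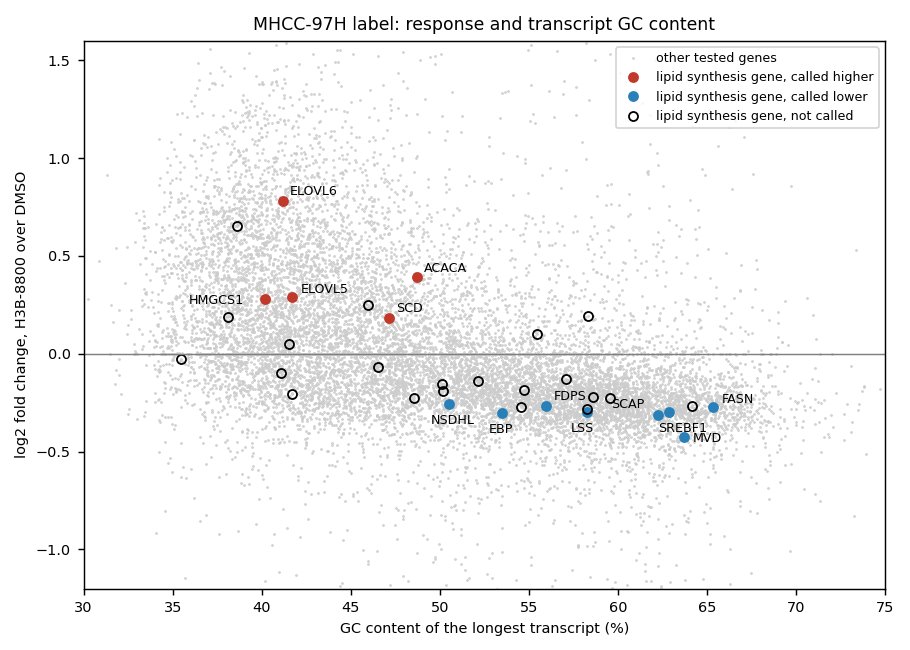
The horizontal axis gives the GC content of the longest transcript in percent and the vertical axis the log2 fold change of H3B-8800 over DMSO in MHCC-97H libraries; large points are lipid synthesis genes and small points other tested genes, those beyond the axis limits not drawn. The 5 genes called higher lie below 49% GC and the 8 called lower above 50%.

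When the dependence of each library's counts on GC content and exonic length was first taken out (a GC-and-length correction), 6 of the 34 genes were called in place of 13. SCD (log2 fold change 0.14, adjusted p = 0.0063) and ELOVL6 (0.48, 0.0088) stayed higher. FASN (-0.23, 0.018) and SREBF1 (-0.22, 0.027) stayed lower, and IDI1 (-0.29, 0.023) and INSIG2 (-0.19, 0.016) were called lower only there and in the same fit with a replicate block. The other 9 of the 13 lost their call, MVD with a log2 fold change of -0.21 (adjusted p = 0.10), EBP with -0.09 (0.091), HMGCS1 with 0.07 (0.61) and ELOVL5 with 0.13 (0.060) among them. What set the GC trend in these libraries was not tested.

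Under the other labels none of the 34 genes was called. For H3B-8800 over DMSO, edgeR called 0 of 34 under the MDA-MB-231 label, 0 of 34 under the HCT-116 label and 0 of 34 for the mean of both effects, against 0.0351%, 0.0351% and 0.0422% of all tested genes. At an unadjusted p under 0.05 there were 2, 2 and 3 of the 34, against 7.19%, 4.6% and 7.59% of all tested genes. With a replicate block these were 6, 4 and 4 of the 34, beside 1832, 1028 and 1960 of the 14234 tested genes. DESeq2 and limma voom also called 0 in each, as did edgeR without replicate 2 of both HCT-116 groups. The median log2 fold change for the mean of both effects was 0.03 over the 34 genes and 0.00 over all tested genes.

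The smallest p-values for that mean were those of INSIG2, EBP, MVK and HMGCS1. INSIG2 had 108, 97.8 and 96.5 CPM in MDA-MB-231 H3B-8800 libraries, against 110.1, 109 and 103.5 CPM in DMSO libraries, and 104, 93.6 and 99.6 CPM in HCT-116 H3B-8800 libraries, against 119, 102 and 118 CPM in DMSO libraries. The groups overlapped under both labels, and the mean log2 fold change of -0.14 (SE 0.04) had an unadjusted p of 0.006 and an adjusted p of 0.47 (0.089 with a replicate block). Set against the same-numbered DMSO library, INSIG2 was lower in all 3 HCT-116 H3B-8800 libraries, but the labels do not say what a replicate number marks. EBP, which fell in MHCC-97H libraries, had 102, 103 and 108 CPM in MDA-MB-231 H3B-8800 libraries, against 98.9, 95.6 and 97.6 CPM in DMSO libraries, and 100.1, 121 and 105 CPM in HCT-116 H3B-8800 libraries, against 91.8, 103 and 94.7 CPM in DMSO libraries. Its groups were apart under the MDA-MB-231 label and overlapped under the HCT-116 label, and the mean log2 fold change of 0.14 (SE 0.04) did not pass (adjusted p = 0.47, or 0.094 with a replicate block). Each HCT-116 H3B-8800 library was above its same-numbered DMSO library, with the same limit, since the numbers were not taken as pairs.

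MVK had 17.5, 19.5 and 18.2 CPM in MDA-MB-231 H3B-8800 libraries, against 17.2, 16.1 and 16.1 CPM in DMSO libraries. Under the HCT-116 label it had 20.0, 24.4 and 19.7 CPM in H3B-8800 libraries, against 15.2, 19.6 and 19.4 CPM in DMSO libraries. The H3B-8800 values lay above the DMSO values under each label, with a mean log2 fold change of 0.20 (SE 0.08, adjusted p = 0.61). HMGCS1 had 23.2, 21.2 and 20.9 CPM in MDA-MB-231 H3B-8800 libraries, against 26.9, 24.1 and 24.3 CPM in DMSO libraries, and 26.9, 21.4 and 22.0 CPM in HCT-116 H3B-8800 libraries, against 26.3, 21.2 and 23.6 CPM in DMSO libraries. It was lower in every MDA-MB-231 H3B-8800 library and overlapped under HCT-116 (mean log2 fold change -0.11, SE 0.07, adjusted p = 0.74).

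The difference between the MHCC-97H effect and the mean effect of the other labels was tested in the same fit. It passed for 13 of the 34 genes, 5 more positive and 8 more negative under MHCC-97H, against 25.4% of all tested genes (12.2% more positive, 13.2% more negative). ELOVL6 (0.89, SE 0.20, adjusted p = 0.0070), EBP (-0.44, SE 0.07, adjusted p = 0.0028) and MVD (-0.54, SE 0.12, adjusted p = 0.0081) had the smallest adjusted p of these. MVK (-0.48, SE 0.15, adjusted p = 0.027) and SREBF2 (-0.17, SE 0.06, adjusted p = 0.0496, called in 7 of 29 alternative settings) passed here without having passed under MHCC-97H alone. SCAP (-0.27, adjusted p = 0.069) and NSDHL (-0.27, adjusted p = 0.080) had passed under MHCC-97H but not here. With library totals 9 were called, 7 of them positive, under the GC-and-length correction 6, 1 of them positive, and without replicate 2 of both HCT-116 groups 16. The median of all genes for this difference was 0.08 by library totals, against -0.06 by TMM.

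**Figure D3:**
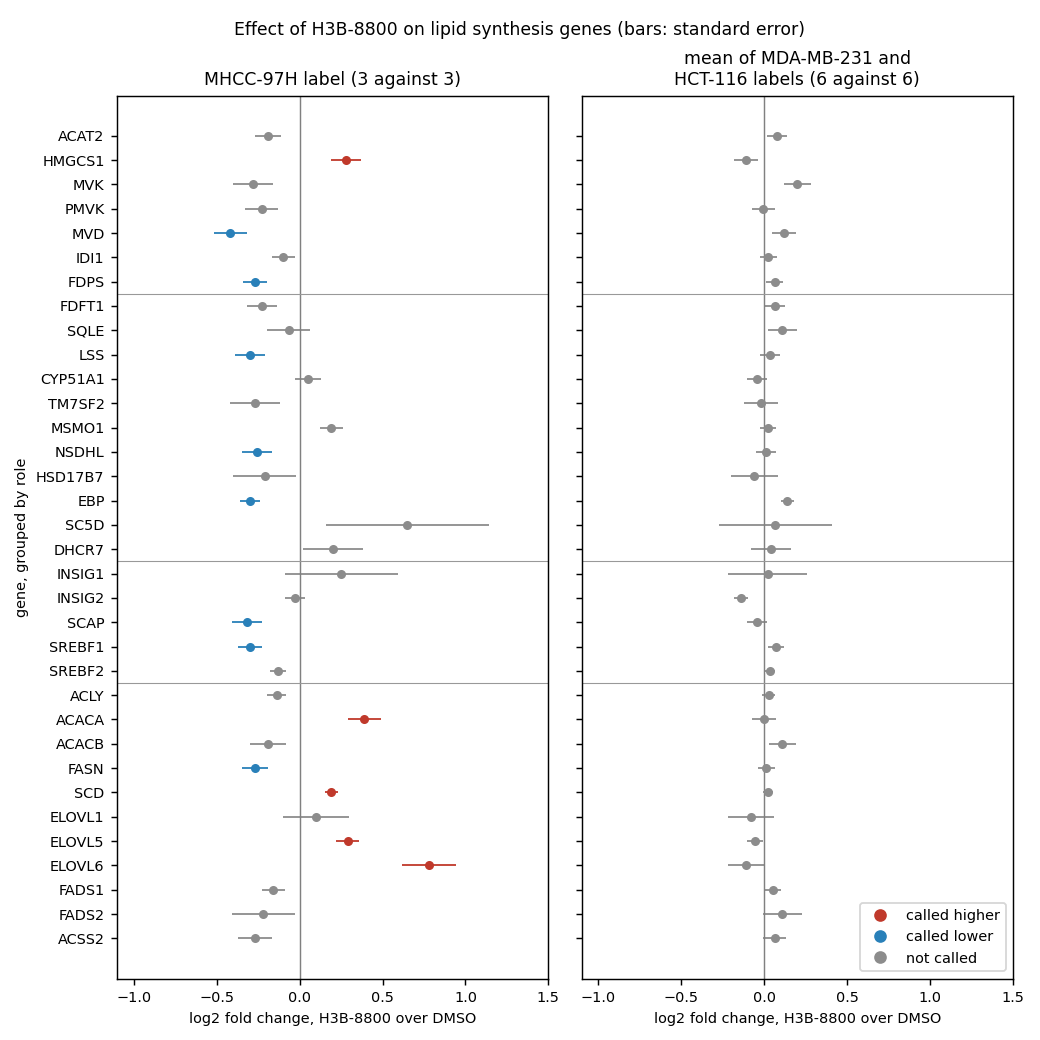
Points give the log2 fold change of H3B-8800 over DMSO and bars its standard error, for MHCC-97H libraries on the left and the mean of the HCT-116 and MDA-MB-231 labels on the right; genes run down the page by role. Coloured points, 5 higher and 8 lower, stand on the left only, and none of the 34 genes was called on the right.

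DMSO libraries were then compared between labels. MHCC-97H DMSO libraries differed from the mean of the MDA-MB-231 and HCT-116 DMSO libraries in 29 of the 34 genes, 13 higher and 16 lower, which is 85.3%, against 84.6% of all tested genes (40.7% higher, 43.9% lower). That share is at the background. By role, 4 of 7 mevalonate genes were higher and 3 lower, 3 of 11 sterol genes higher and 5 lower, 4 of 5 regulators higher and 1 lower, and 2 of 11 fatty acid genes higher and 7 lower. The median log2 difference was 0.45, -0.10, 0.27 and -1.13 in these groups of genes, in that order, and -0.08 over all tested genes. With library totals 9 were higher and 20 lower, and the median of all genes moved to -0.35. Markers of other tissues differ between these labels as given above, and their part in these differences was not tested.

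The largest differences upward were in the INSIG genes. INSIG1 (ENSG00000186480, chr7:155297776-155310235) had 402, 568 and 596 CPM in MHCC-97H DMSO libraries, against 33.8, 56.4 and 59.9 CPM in MDA-MB-231 and 35.1, 33.3 and 61.9 CPM in HCT-116 DMSO libraries. Its lowest MHCC-97H value was far above every other, a log2 difference of 3.49 (SE 0.29, adjusted p = 1.5e-08) or 11.2-fold. INSIG2 (ENSG00000125629, chr2:118088452-118110997) had 373, 390.0 and 381 CPM in MHCC-97H, against 110.1, 109 and 103.5 CPM in MDA-MB-231 and 119, 102 and 118 CPM in HCT-116 DMSO libraries. These too were wholly apart (log2 difference 1.79, SE 0.05, adjusted p = 2.1e-14).

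HSD17B7 had 13.5, 12.4 and 10.7 CPM in MHCC-97H DMSO libraries, against 5.26, 4.57 and 2.72 CPM in MDA-MB-231 and 3.86, 3.80 and 4.88 CPM in HCT-116 DMSO libraries. It was higher in each MHCC-97H library (log2 difference 1.55, SE 0.16, adjusted p = 1.8e-07). HMGCS1 (1.54), EBP (1.08) and MVD (1.07) were also higher by more than 1 on the log2 scale, with FDFT1 (0.78), ACAT2 (0.72), IDI1 (0.44) and ACACB (0.34) following. SREBF1 (0.27), SREBF2 (0.25) and ACSS2 (0.22) were higher with TMM scaling, but with library totals their differences were 0.00, -0.01 and -0.05 and none was called, nor was ACACB, at 0.07 (adjusted p = 0.47). The ACSS2 call held in 26 of 32 alternative settings. SREBF1 was also at -0.05 and not called under the GC-and-length correction.

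The largest differences downward were in fatty acid and squalene genes. FADS2 (ENSG00000134824, chr11:61792980-61867354), the first desaturase of the polyunsaturated route, had 13.6, 26.7 and 22.7 CPM in MHCC-97H DMSO libraries, against 355, 378 and 359 CPM in MDA-MB-231 and 359, 403 and 398 CPM in HCT-116 DMSO libraries. That is a log2 difference of -4.16 (SE 0.19, adjusted p = 1.2e-11), 17.9-fold lower. Its neighbour FADS1, on the opposite strand, showed no such gap: 313, 312 and 318 CPM in MHCC-97H, against 319.7, 306 and 307 CPM in MDA-MB-231 and 315, 378 and 311 CPM in HCT-116 DMSO libraries (log2 difference -0.04, SE 0.06, adjusted p = 0.58). The exons of this pair overlap in part, 4.89% of FADS2 exonic bases and 5.57% of those of FADS1 lying on another annotated gene.

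SQLE had 29.9, 34.3 and 29 CPM in MHCC-97H DMSO libraries, against 224, 225 and 180.2 CPM in MDA-MB-231 and 180.5, 187 and 228 CPM in HCT-116 DMSO libraries. No library overlapped (log2 difference -2.72, SE 0.12, adjusted p = 5.6e-12). ELOVL6 had 5.07, 4.63 and 5.34 CPM in MHCC-97H DMSO libraries, against 31.7, 26.8 and 22.9 CPM in MDA-MB-231 and 27.1, 21.4 and 28.3 CPM in HCT-116 DMSO libraries. The member with the largest rise under H3B-8800 in MHCC-97H libraries was thus 5.24-fold lower in DMSO there (log2 difference -2.39, SE 0.15, adjusted p = 4.9e-10).

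FASN had 452, 453 and 468 CPM in MHCC-97H DMSO libraries, against 1774, 1719.5 and 1835.5 CPM in MDA-MB-231 and 1725.5, 2011 and 1813 CPM in HCT-116 DMSO libraries. It was 3.96-fold lower (adjusted p = 3.2e-13). SCD had 858, 788 and 847 CPM in MHCC-97H DMSO libraries, against 2173, 2154 and 2183 CPM in MDA-MB-231 and 2238, 2251 and 2286 CPM in HCT-116 DMSO libraries, 2.66-fold lower (adjusted p = 2.2e-15). ACACA (-1.80), LSS (-1.43), ACLY (-1.13) and DHCR7 (-1.07) were lower by more than 1 on the log2 scale. TM7SF2 (-0.61), MVK (-0.43), CYP51A1 (-0.39), FDPS (-0.24), ELOVL5 (-0.23), PMVK (-0.20) and SCAP (-0.17) were lower by less. The PMVK call held in 19 and the SCAP call in 20 of 32 alternative settings, and both were lost in DESeq2 (adjusted p = 0.17 and 0.18). Under the GC-and-length correction, CYP51A1 stood at 0.03 and was not called, and ELOVL5 turned to 0.22 (adjusted p = 5.7e-05). MSMO1, NSDHL, SC5D, ELOVL1 and FADS1 did not pass.

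**Figure D4:**
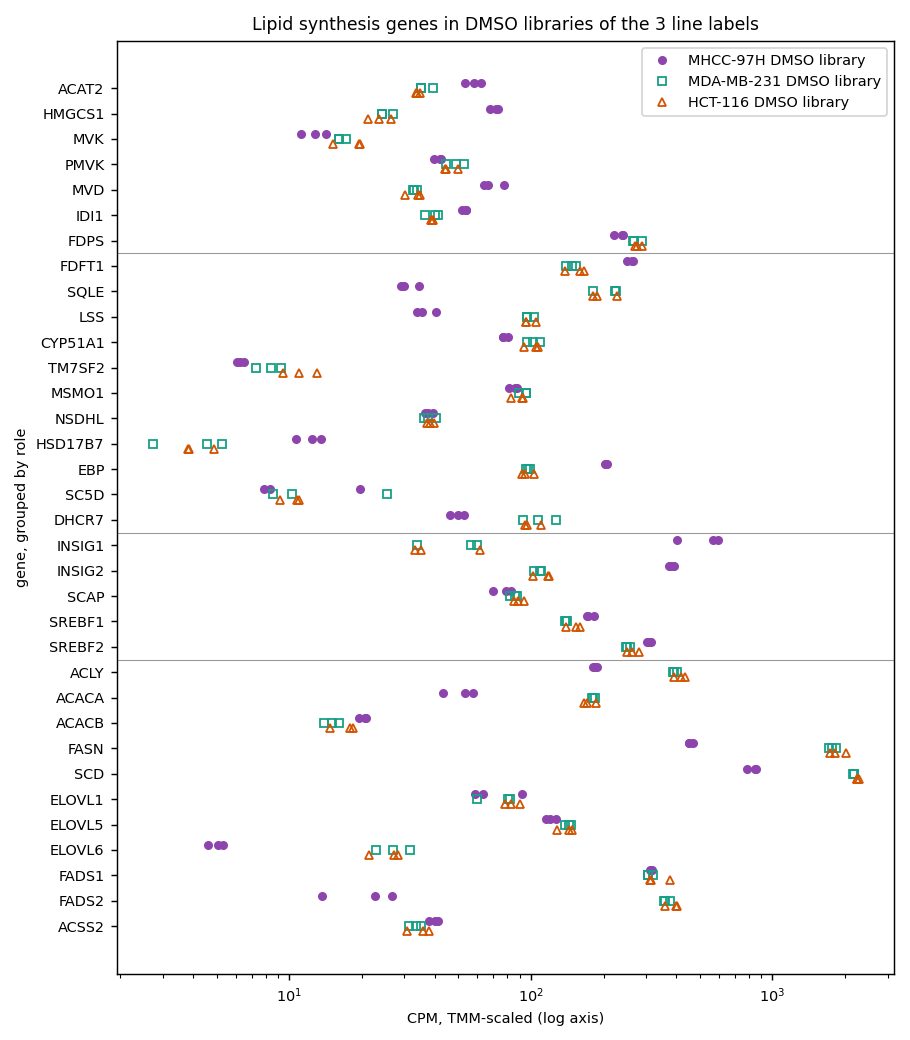
Each row is a lipid synthesis gene and each point a DMSO library, as TMM-scaled CPM on a log axis; MHCC-97H libraries are filled circles, MDA-MB-231 squares and HCT-116 triangles. INSIG1 and INSIG2 lie to the right in MHCC-97H, and FADS2, SQLE, ELOVL6, FASN, ACACA and SCD to the left. The squares and triangles lie close together, and none of the 34 genes was called between these labels. They do not overlap for SCD, TM7SF2 and ACAT2, but the share of all tested genes without overlap was not taken.

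Between MDA-MB-231 and HCT-116 DMSO libraries, 0 of the 34 genes were called by edgeR, DESeq2 or limma voom, against 0.0351% of all tested genes in edgeR; 1 had an unadjusted p under 0.05 in edgeR, against 4.13% of all tested genes. The median log2 difference was -0.01.

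Per kb of exonic length, the order of the genes differed between labels. In MHCC-97H DMSO libraries the highest mean levels were those of SCD (155 ± 7.04 CPM per kb), INSIG1 (143 ± 28.6), INSIG2 (96.6 ± 2.16), EBP (84.9 ± 1.05) and FDPS (62.8 ± 2.74; SD, n = 3 each). SCD and INSIG1 did not differ beyond their spread, and they change places when the longest transcript is used as length. In MDA-MB-231 DMSO libraries SCD (405 ± 2.68) led, before FASN (189.7 ± 6.20), ACLY (75.5 ± 1.54), FDPS (73.6 ± 3.36) and SQLE (48.7 ± 5.91). HCT-116 DMSO libraries gave the same leading 5, from SCD at 421 ± 4.64 to SQLE at 46.1 ± 5.91 CPM per kb. Under both labels the values of ACLY and FDPS overlapped between libraries, and these genes were not compared within each library. That order rests on exonic length: by longest transcript FDPS stood well above ACLY, at 135.7 ± 6.19 against 90.7 ± 1.86 CPM per kb in MDA-MB-231 and 138.0 ± 4.99 against 95.5 ± 5.19 in HCT-116, and FADS2 took the place of SQLE among the leading 5. The lowest level in MHCC-97H DMSO libraries was that of ELOVL6, at 0.687 ± 0.0493 CPM per kb, and in the other labels that of HSD17B7, at 0.876 ± 0.275 in MDA-MB-231 and 0.875 ± 0.127 in HCT-116.

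INSIG1 and SC5D varied widely between libraries of the same group. The mean coefficient of variation within groups was 30.5% for INSIG1 and 39.4% for SC5D, higher than 97.4% and 98.7% of the 10658 genes averaging at least 1 CPM in every group. The median over the 34 genes was 6.82%, against 8.43% over those 10658. INSIG1 lay between 32.3 and 35.5 CPM or between 56.4 and 62.1 CPM in every library of the HCT-116 and MDA-MB-231 labels. Low values of 32.3 and 33.8 CPM stood in replicate 1 of the MDA-MB-231 H3B-8800 and DMSO groups, and 35.5, 34.3, 35.1 and 33.3 CPM in HCT-116 H3B-8800 replicates 1 and 3 and DMSO replicates 1 and 2. SC5D was high in replicate 1 of both MDA-MB-231 groups, at 24.2 CPM with H3B-8800 and 25.3 CPM with DMSO, and from 8.56 to 10.3 CPM in their other 4 libraries. In MHCC-97H it was 21.1, 26.0 and 9.38 CPM in H3B-8800 libraries, against 19.7, 8.33 and 7.85 CPM in DMSO libraries. Neither gene passed in any comparison of H3B-8800 with DMSO, and what sets their spread was not tested.

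**Figure D5:**
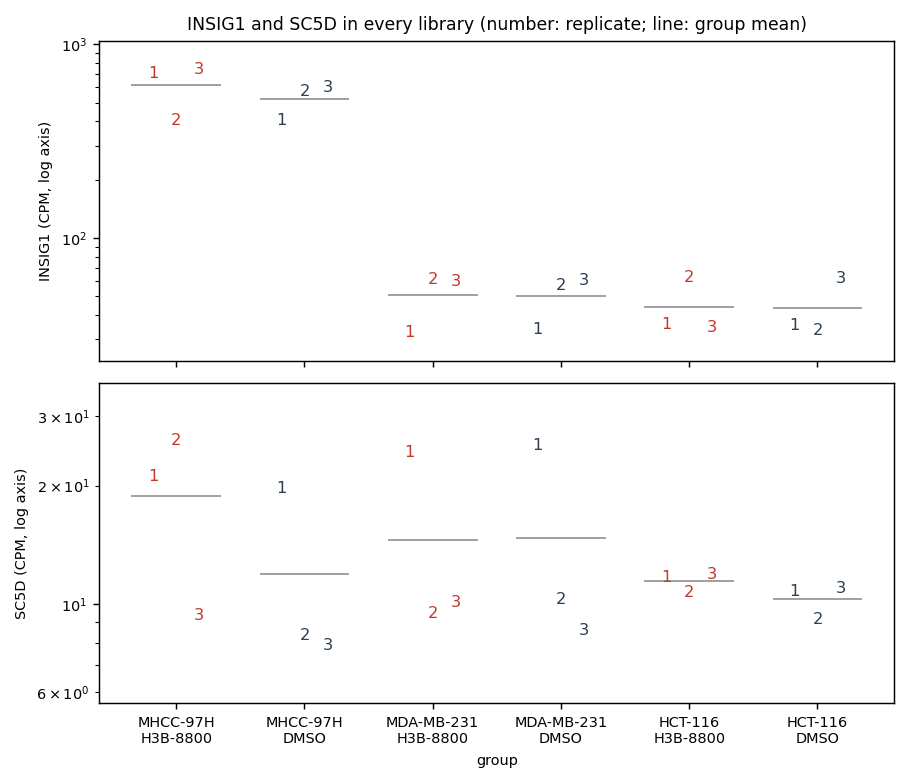
Numbers mark the replicate and lines the group mean of TMM-scaled CPM, on log axes, for INSIG1 above and SC5D below in the 6 groups. INSIG1 ranges from 32.3 to 62.1 CPM and SC5D from 8.56 to 25.3 CPM in the MDA-MB-231 and HCT-116 groups, with no order by treatment.

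Other genes of lipid metabolism were read from lists of related pathways. Of 17 genes of SREBP processing, 4 rose and 1 fell with H3B-8800 in MHCC-97H libraries. SEC24B, a coat protein of vesicles leaving the endoplasmic reticulum, averaged 23.3 ± 1.21 CPM in H3B-8800 libraries and 10.8 ± 1.06 CPM in DMSO libraries (SD, n = 3 each; log2 fold change 1.10, SE 0.17, adjusted p = 0.0016). Its relatives SEC24D (0.46, adjusted p = 0.0032) and SEC24A (0.50, 0.015) also rose, with the site-2 protease gene MBTPS2 (0.66, 0.017). Of 17 genes of sterol export, transport and storage, 5 rose and 4 fell. ABCA1, which exports cholesterol, averaged 7.09 ± 1.28 CPM in H3B-8800 libraries and 3.30 ± 0.538 CPM in DMSO libraries (log2 fold change 1.11, SE 0.23, adjusted p = 0.0042). SOAT1, which esterifies cholesterol, rose (0.39, 0.0047), and the sterol carrier GRAMD1A fell (-0.28, 0.0076).

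Of 14 genes of isoprenoid branches, 2 rose and 2 fell, led by COQ2 of ubiquinone synthesis (-0.41, 0.024), the prenyltransferase subunit PGGT1B (0.52, 0.026) and the protease ZMPSTE24 (0.25, 0.026). Of 23 other genes of fatty acid synthesis, elongation and activation, 21 were tested, of which 6 rose and 3 fell. They were led by the elongase ELOVL7, low throughout at 0.825 ± 0.0704 CPM in H3B-8800 libraries and 0.316 ± 0.185 CPM in DMSO libraries (log2 fold change 1.36, adjusted p = 0.0051), the dehydratase HACD2 (0.71, 0.0074) and the malic enzyme ME1 (0.18, 0.0076). Of 21 genes of fatty acid oxidation, 20 were tested, of which 8 fell and none rose, where 14.7% of all tested genes fell and 12.9% rose. The 8 were led by ECI1 (-0.41, 0.0031), ECHS1 (-0.29, 0.0092) and HADHB (-0.18, 0.011), which act in mitochondrial beta-oxidation. Across the 5 lists the shares called were 29.4%, 52.9%, 28.6%, 42.9% and 40.0%, beside 27.6% of all tested genes, and none of their genes was called for the mean effect of the other labels. For the difference between the MHCC-97H effect and that mean, the shares were 29.4%, 47.1%, 35.7%, 47.6% and 25.0%, beside 25.4% of all tested genes. Among the genes named, those that rose had longest transcripts of 34.0% (PGGT1B) to 45.5% GC (SEC24D). Those that fell had 43.5% (HADHB) to 62.8% (GRAMD1A). These lists were read in the main fit only, and the part of the GC trend in their calls was not tested.

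SCD5, a second stearoyl-CoA desaturase, was singled out after its values were seen. It had 21.8, 19.2 and 20.5 CPM in MHCC-97H H3B-8800 libraries and 18.3, 19.3 and 18.2 CPM in MHCC-97H DMSO libraries, and 0 counts in all 12 libraries of the other labels. A count of 0 over those 12 libraries allows up to 0.0068 CPM, the level of 3 counts over the group, which covers counting error only. The MHCC-97H mean of 19.5 ± 1.38 CPM (SD, n = 6) was at least 2871-fold higher.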

How the data were processed

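Gene expression was measured by RNA sequencing of total RNA. The authors deposited raw whole-number counts per Ensembl gene for 18 libraries, and fastp, HISAT2 and GRCh38 are named in the submitters' processing notes; their versions, the counting tool, its annotation, the strand setting and the kit were not given in the sources used here. Gene names, positions, exon lengths and GC content came from GENCODE release 29, which holds 20224 of the 20263 genes. edgeR 4.0.16 (R 4.3.3) fitted the counts over all 18 libraries with 1 mean per group, TMM scaling, filterByExpr and the robust quasi-likelihood F test, with Benjamini-Hochberg adjustment over 14234 genes and a threshold of 0.05. CPM are TMM-scaled, and SD is over n = 3 libraries. Intervals and floors cover counting error only. The script was tested on simulated data.

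The members and lists were chosen with earlier results of these data known. Per-library values are given for the 10 smallest p-values under MHCC-97H, the 4 smallest for the other labels' mean effect, the 3 largest label differences each way and 7 genes that anchor the pathway, with further genes given where their values add to a group. Related lists name up to 3 genes by adjusted p, and the 4 that rose for SREBP processing, where 1 further gene is counted but its values are not reported here.

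Alternatives covered scaling, filter, tool (DESeq2 1.42.0, limma voom 3.58.1), libraries in the fit, a GC-and-length correction by splines of 5 degrees of freedom, a replicate block and each library left out.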

Additional observations from a re-analysis of the deposited data

Results flagged for a closer look

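For 13 genes the H3B-8800 effect under the MHCC-97H label differed from the mean effect of the other labels, by an edgeR test of the difference itself, where 25.4% of all tested genes did so. More positive under MHCC-97H were ELOVL6 (difference 0.89 on the log2 scale), HMGCS1 (0.39), ACACA (0.39), ELOVL5 (0.35) and SCD (0.16). More negative were MVD (-0.54), MVK (-0.48), EBP (-0.44), SREBF1 (-0.37), FDPS (-0.33), LSS (-0.33), FASN (-0.28) and SREBF2 (-0.17). The difference passed in all 29 alternative settings for EBP and ELOVL6, in 14 for LSS, in 14 for FASN and in 7 for SREBF2. The other 8 passed in 21 to 28. Under the GC-and-length correction ELOVL6, EBP, SREBF1 and FASN kept this call. HMGCS1, MVK, MVD, FDPS, LSS, SREBF2, ACACA, SCD and ELOVL5 lost it there. The 6 genes called with that correction thus included some outside these 13. GC content moved with the MHCC-97H effect, with a rho of -0.72 over the 34 genes and -0.52 over all tested genes with an annotation. It moved the other way with the mean effect of the other labels, at 0.35 over the 34 genes and 0.31 over all. What set these trends was not tested.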

How the results depend on the processing

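Calls rest on 3 libraries a group and small fold changes, and how far depth limits them was not tested. Members called under MHCC-97H (13) numbered 8 with library totals, 20 with the replicate block, 6 under the GC-and-length correction and 20 without replicate 2 of both HCT-116 groups, an alternative chosen after seeing the data. Leaving out 1 library gave 7 to 18: 7 without DMSO replicate 2, 8 without DMSO replicate 3 and 7 without H3B-8800 replicate 2 of MHCC-97H. Over all genes, 3922 calls became 2847 with library totals and 2179 with the correction, and 2141 to 4455 with 1 library left out. The difference between labels (13) gave 6 with the correction, 8 with it and the replicate block, and 7 to 16 with 1 library left out: 7 and 8 without replicates 2 and 3 of MHCC-97H DMSO, and 8 and 7 without replicates 1 and 2 of MHCC-97H H3B-8800. The median level per kb in MHCC-97H DMSO libraries was 17.0 CPM by exonic length and 22.2 CPM by longest transcript.

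Log2 values changed sign under MHCC-97H only for the genes named here. PMVK changed under the GC-and-length correction (0.0469, or 0.0473 with the replicate block added), and CYP51A1 in both of these fits (-0.11). With library totals IDI1 (0.0331), SQLE (0.0668), INSIG2 (0.11) and SREBF2 (0.00218) changed sign. INSIG2 also changed in a fit of only the compared libraries (0.0321). SQLE changed without DMSO replicate 2 (0.0122, in a range from -0.11 to there over the libraries left out). ELOVL1 changed without DMSO replicate 1 (-0.0203, in a range from there to 0.33 over the libraries left out). None of these genes was called in the main fit or where its sign changed. In other settings IDI1 and INSIG2 were called lower in 2 of 30 alternatives, and PMVK and SREBF2 in 3. Between labels in DMSO, CYP51A1 turned to 0.0319 and 0.0357, SREBF1 to -0.0535 and -0.0544 and ELOVL5 to 0.22 in both fits with the correction, and SREBF1 (-0.00116), SREBF2 (-0.0148) and ACSS2 (-0.0476) with library totals. Apart from the construction of each fit, the cause was not tested. Counts of 0 under the other labels, and between those labels in DMSO, were 0 in every alternative; the 29 called between labels stayed within 26 to 30. The labels do not say what a replicate number marks. Same-numbered libraries correlated in their deviations from group means by 0.05, 0.192 and 0.032 under HCT-116 over the 14234 tested genes, and by 0.178, 0.454 and 0.131 over the 9233 averaging at least 10 CPM, a subset chosen after seeing the data. In neither set did every HCT-116 library correlate best with its own number, and under the other labels not every pair passed 0.1, so the numbers were not taken as pairs. With the replicate block the mean effect of the other labels had 24 calls over all genes in place of 6, none of them among the 34, and HCT-116 had 5 as without it. Unadjusted p under 0.05 became more frequent in all 3 comparisons under those labels, as given above, and between their DMSO libraries (2 of the 34 in place of 1, and 883 in place of 588 genes).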
